A study of Mus musculus with 10 samples.

Results

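Brush border hydrolases are enzymes anchored in the apical membrane of absorptive enterocytes, where they cut dietary sugars, peptides and phosphate esters just before uptake. They are classic markers of the mature enterocyte of the small intestinal villus. Disaccharidases finish the digestion of starch, sucrose, lactose and trehalose, and alkaline phosphatase dephosphorylates lipids and bacterial lipopolysaccharide. Aminopeptidases and dipeptidyl peptidases shorten peptides from the N-terminus, and endopeptidases cut inside the chain. The 9 genes described here are the disaccharidases Lct, Sis, Mgam and Treh, the phosphatase Alpi and the peptidases Anpep, Enpep, Dpp4 and Mme. They were taken by gene symbol from the 54532 genes of the deposited count table, and all 9 passed the filter on low counts that 15703 genes passed.

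RNA had been sequenced from cells of the small intestine of 5 litter-matched Gucy2c-GFP mice, 10 weeks old, on the CD1/ICR background. All 5 mice carried the GFP transgene, which is driven by the promoter of Gucy2c, the gene of the epithelial receptor guanylyl cyclase C. Cells of each mouse were sorted by fluorescence into a bright group (GUCY2Chi) and a group of medium brightness (GUCY2Cmed), 20000 cells per group, so neither group is free of the reporter. The comparison asks how far digestive enzyme RNA of the bulk epithelium is present in the GUCY2Chi cells.

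Each group had 5 libraries, numbered 2, 7, 12, 14 and 15, read here as mouse numbers, and 10903958 to 15307932 reads per library were counted on genes. Levels are given as TMM-normalised cpm (read counts relative to library size, scaled between libraries by the trimmed mean of M values). Fold changes are from edgeR's quasi-likelihood test with Benjamini-Hochberg adjustment over all 15703 genes and a threshold of 0.01. Summed over 16 enteroendocrine markers, the GUCY2Chi libraries held 34723 to 134836 cpm and the GUCY2Cmed libraries 120.1 to 322 cpm. The 20 enterocyte markers, none of them a hydrolase described here, summed to 63955 to 84374 cpm in GUCY2Cmed libraries. In GUCY2Chi libraries they summed to 7515, 6753 and 7955 cpm in mice 2, 7 and 14, and to 35221 and 36236 cpm in mice 12 and 15. The GUCY2Chi libraries of mice 12 and 15 thus stood apart, and they also had the lowest Gucy2c of their group (1021 and 549 cpm, against 1532 to 1757 cpm in the other three). In the same libraries T cell markers were also high, summed to 286 and 245 cpm in mice 12 and 15 against 47.0, 27.7 and 66.8 cpm in mice 2, 7 and 14, and 34.4 to 198 cpm in GUCY2Cmed libraries, and their part in the results was not tested. The 6 forebrain neuron markers summed to 347 and 1113 cpm in GUCY2Chi libraries of mice 12 and 15. They summed to 24.3, 370 and 25.9 cpm in those of mice 2, 7 and 14, and to at most 623 cpm in GUCY2Cmed. The groups overlapped, and 0 of the 6 passed the threshold. The source of this RNA and its part in the results were not tested. Results that rest on the GUCY2Chi libraries of mice 12 and 15 are given with and without them. In sorted bulk cells, fewer cells of a type and less RNA per cell cannot be told apart.

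All but 1 of the 9 hydrolases, that is 8, were lower in every GUCY2Chi library than in any GUCY2Cmed library, and Sis was the exception. Such a separation toward lower values was found for 13.2% of all genes tested. The test called 4 of the 9 lower (Mgam, Anpep, Enpep and Dpp4) and 0 higher, against 8.79% of all genes lower and 13.9% higher. All 9 had a fitted log2 fold change below 0, as had 45.4% of all genes. The median log2 fold change of the 9 was -2.52, and that of all genes tested was 0.09. With limma-voom and with DESeq2, 8 of the 9 passed the same threshold, all but Sis, where 11.4% and 14.2% of all genes were called lower. The size of the difference fell into 3 ranges, with log2 fold changes between -2.83 and -2.42 for 7 genes, -1.29 for Dpp4 and -0.55 for Sis.

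**Figure D1:**
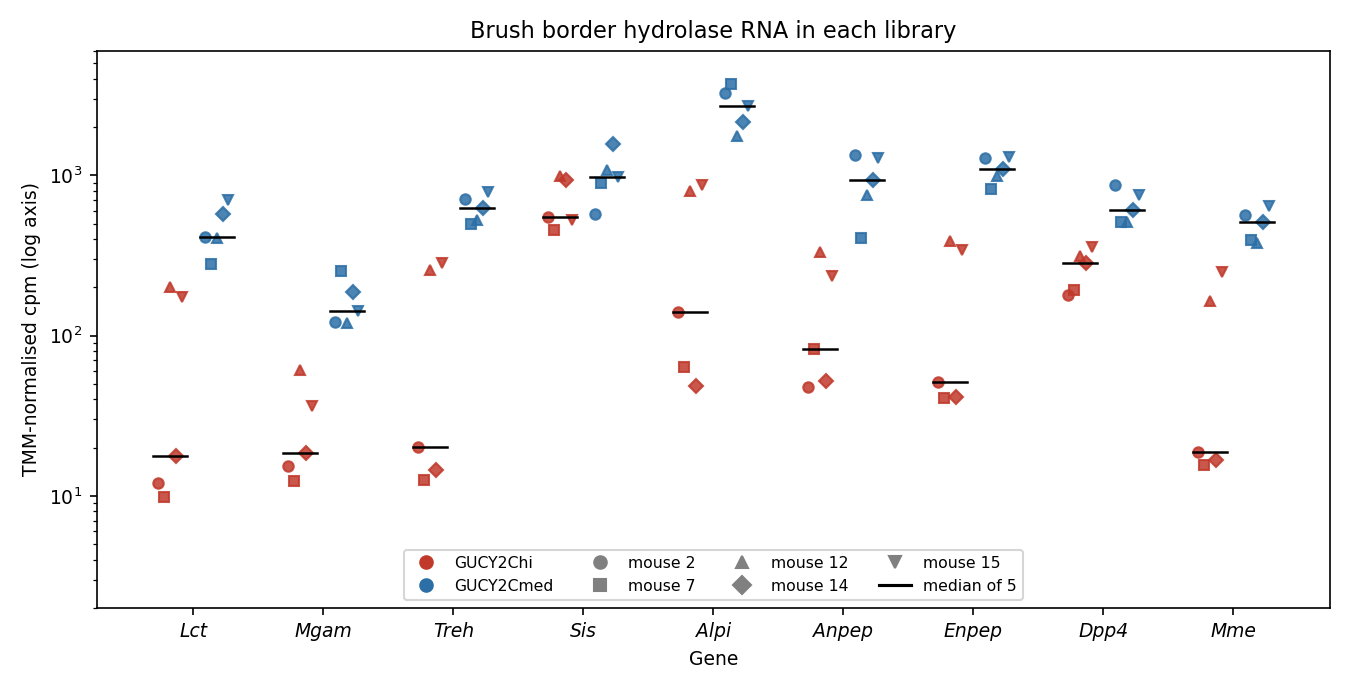
TMM-normalised cpm (log axis) of each hydrolase gene in the 5 GUCY2Chi (red) and 5 GUCY2Cmed (blue) libraries; the marker shape gives the mouse and the black line the median of 5. The groups do not overlap except for Sis, and the GUCY2Chi libraries of mice 12 and 15 (triangles) lie above the other three for every gene but Sis, by the least for Dpp4.

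Among the disaccharidases, Lct (ENSMUSG00000026354; GRCm38 chromosome 1, 128284756 to 128328318, minus strand) encodes lactase-phlorizin hydrolase, which splits milk sugar. GUCY2Chi cells of mice 2, 7, 12, 14 and 15 had 11.97, 9.83, 201, 17.8 and 174 cpm of it, and GUCY2Cmed cells 413, 281, 409, 574 and 702 cpm. The groups did not overlap, although the GUCY2Chi libraries spanned a 20.4-fold range and the GUCY2Cmed libraries 2.50-fold. The mean was 82.9 ± 95.9 cpm (SD, n = 5) against 476 ± 164 cpm (SD, n = 5). The log2 fold change of -2.52 (SE 0.83) did not pass the threshold (edgeR adjusted p = 0.0323), while limma-voom gave a 95% interval from -5.48 to -1.73.

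Mgam (ENSMUSG00000068587; chromosome 6, 40628831 to 40769123, plus strand) encodes maltase-glucoamylase, which releases glucose from the ends of starch fragments. It had 15.3, 12.4, 61.3, 18.6 and 36.3 cpm in GUCY2Chi cells and 122, 255, 120.2, 187 and 143 cpm in GUCY2Cmed cells of mice 2, 7, 12, 14 and 15. Every GUCY2Chi value was below every GUCY2Cmed value, with a gap between 61.3 cpm and 120.2 cpm. Mgam fell by 2.52 on the log2 scale (SE 0.44, edgeR adjusted p = 0.00142), and it passed the threshold in all 22 alternative analyses.

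Treh (ENSMUSG00000032098; chromosome 9, 44673233 to 44686305, plus strand) encodes trehalase, which splits the disaccharide of mushrooms and yeast. Levels were 20.1, 12.5, 257, 14.4 and 283 cpm in GUCY2Chi cells and 714, 496, 524, 628 and 785 cpm in GUCY2Cmed cells, in the same order of mice. The GUCY2Cmed libraries lay within 1.58-fold of one another, and the GUCY2Chi libraries fell into a low set (mice 2, 7 and 14) and a higher set (mice 12 and 15). The log2 fold change was -2.42 (SE 0.86, edgeR adjusted p = 0.0431).

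Sis (ENSMUSG00000027790; chromosome 3, 72888557 to 72967863, minus strand) encodes sucrase-isomaltase, the enzyme for sucrose and for the branch points of starch, and is a paralog of Mgam. It measured 549, 457, 995, 938 and 530 cpm in GUCY2Chi cells and 572, 894, 1075, 1572 and 982 cpm in GUCY2Cmed cells of mice 2, 7, 12, 14 and 15. The groups overlapped: the 2 highest GUCY2Chi libraries, of mice 12 and 14, exceeded the GUCY2Cmed libraries of mice 2 and 7. The value in GUCY2Chi was nevertheless the lower one in 5 of 5 mice. Means were 694 ± 252.2 cpm (SD, n = 5) and 1019 ± 362 cpm (SD, n = 5), with a log2 fold change of -0.55 (SE 0.32, edgeR adjusted p = 0.193). The exact two-sided permutation test on log2 values gave p = 0.119, and limma-voom a 95% interval from -1.21 to 0.12. Sis was past the threshold in 0 of the 22 alternatives, in which its log2 fold change ran from -0.72 to -0.30.

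The phosphatase gene Alpi (ENSMUSG00000079440; chromosome 1, 87098002 to 87101606, minus strand) had the highest level per length of the 9 in GUCY2Cmed cells. Its product, intestinal alkaline phosphatase, detoxifies lipopolysaccharide at the cell surface. GUCY2Chi cells had 139.6, 63.3, 802, 48.6 and 867 cpm and GUCY2Cmed cells 3285, 3730, 1766, 2159 and 2715 cpm in mice 2, 7, 12, 14 and 15. The highest GUCY2Chi value, of mouse 15, was below the lowest GUCY2Cmed value, of mouse 12, and the other 3 GUCY2Chi libraries were further away. Alpi had the largest fitted difference of the 9 in the main analysis, a log2 fold change of -2.83 (SE 0.79), which missed the threshold (edgeR adjusted p = 0.0146). Alpi, Akp3 and Alppl2 are close paralogs, between which reads may have been shared in counting, so the level of each alone is uncertain.

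Of the 4 peptidases, Anpep (ENSMUSG00000039062; chromosome 7, 79821803 to 79861059, minus strand) encodes aminopeptidase N, which removes neutral residues from the N-terminus of peptides. Its values were 47.8, 82.3, 334, 51.9 and 237 cpm in GUCY2Chi cells and 1343, 406, 755, 938 and 1290.2 cpm in GUCY2Cmed cells. The lowest GUCY2Cmed library, of mouse 7, stayed above the highest GUCY2Chi library, of mouse 12. Anpep fell by 2.65 on the log2 scale (SE 0.59, edgeR adjusted p = 0.00497).

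Enpep (ENSMUSG00000028024; chromosome 3, 129269175 to 129332720, minus strand) encodes aminopeptidase A, which removes acidic residues and also acts on angiotensin II. It had 51.6, 40.6, 388, 41.4 and 342 cpm in GUCY2Chi cells and 1288, 818, 985, 1093 and 1303 cpm in GUCY2Cmed cells. The groups did not overlap, with mice 12 and 15 again highest in GUCY2Chi. Enpep fell by 2.67 on the log2 scale (SE 0.68), just inside the threshold (edgeR adjusted p = 0.00964).

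Dpp4 (ENSMUSG00000035000; chromosome 2, 62330073 to 62412231, minus strand) encodes dipeptidyl peptidase 4, which clips dipeptides after proline or alanine and inactivates the incretin hormones. It had 180.1, 193, 312, 285 and 357 cpm in GUCY2Chi cells and 869, 510.0, 515, 608 and 750.3 cpm in GUCY2Cmed cells of mice 2, 7, 12, 14 and 15. The groups did not overlap, and the GUCY2Chi libraries lay within 1.98-fold of one another, with mice 12 and 15 highest by a small step. Means were 266 ± 76.7 cpm (SD, n = 5) and 650.4 ± 156 cpm (SD, n = 5). Dpp4 fell by 1.29 on the log2 scale (SE 0.25, edgeR adjusted p = 0.00258; limma-voom 95% interval -1.84 to -0.79). With the mouse as replicate block the log2 fold change was -1.31, outside the threshold in edgeR (adjusted p = 0.0104) and inside it in limma-voom (adjusted p = 0.00482).

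Mme (ENSMUSG00000027820; chromosome 3, 63241537 to 63386030, plus strand) encodes neprilysin, an endopeptidase that cuts signalling peptides on the amino side of hydrophobic residues. Values were 18.8, 15.6, 165, 16.8 and 248 cpm in GUCY2Chi cells and 565, 393, 377, 513 and 644 cpm in GUCY2Cmed cells. No GUCY2Chi library reached the GUCY2Cmed range, and mice 12 and 15 stood well above the other three. The log2 fold change was -2.42 (SE 0.77, edgeR adjusted p = 0.0278).

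For the 8 genes without overlap an exact two-sided permutation test of unpaired libraries can only give p = 0.00794, the smallest that 5 against 5 allow, and adds nothing to the separation itself. With the mouse as replicate block, Lct, Treh, Alpi and Mme passed the threshold in limma-voom (adjusted p = 0.00429, 0.00584, 0.00504 and 0.00500) and did not in edgeR (adjusted p = 0.0130, 0.0202, 0.0195 and 0.0160). The counts behind these values ran from 163 reads (Lct in the GUCY2Chi library of mouse 7) to 46460 reads (Alpi in the GUCY2Cmed library of mouse 7), so none was close to the limit of detection.

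Set against the GUCY2Cmed library of the same mouse, the 9 genes behaved differently from one another. In mice 2, 7 and 14, the GUCY2Chi level of the 7 hydrolases other than Sis and Dpp4 was 1.70% to 20.3% of the GUCY2Cmed level. In mice 12 and 15 it was 18.3% to 51.0%. Lct, for example, stood at 2.90%, 3.50% and 3.10% in mice 2, 7 and 14, and at 49.0% and 24.8% in mice 12 and 15. Treh stood at 2.82%, 2.52% and 2.29% in the first 3 mice and at 49.1% and 36.0% in the others. Both genes were thus nearer to the GUCY2Cmed level in mice 12 and 15 than in the others.

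Sis did not follow this split. Its GUCY2Chi level was 95.9%, 51.1% and 59.7% of the GUCY2Cmed level in mice 2, 7 and 14, and 92.6% and 54.0% in mice 12 and 15. Dpp4 lay between, at 20.7%, 37.9% and 47.0% in mice 2, 7 and 14, and 60.6% and 47.6% in mice 12 and 15. The summed enterocyte markers stood at 8.96%, 10.6% and 10.6% in mice 2, 7 and 14, and 46.7% and 42.9% in mice 12 and 15. Lct, Treh, Alpi, Enpep and Mme were therefore each below this sum in mice 2, 7 and 14, whereas Sis and Dpp4 were above it. The sum joins unlike genes, so a place below or above it depends on the markers chosen. Of the 20, 6 were called lower and 0 higher, beside 8.79% and 13.9% of all genes. In mice 2, 7 and 14, Krt20 had 1012, 1728 and 1266 cpm in GUCY2Chi and 750, 1857 and 896 cpm in GUCY2Cmed. Fabp2 had 580, 444 and 415 cpm against 15320, 10197 and 17164 cpm. The part of enterocyte RNA in the hydrolase differences was not tested.

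**Figure D2:**
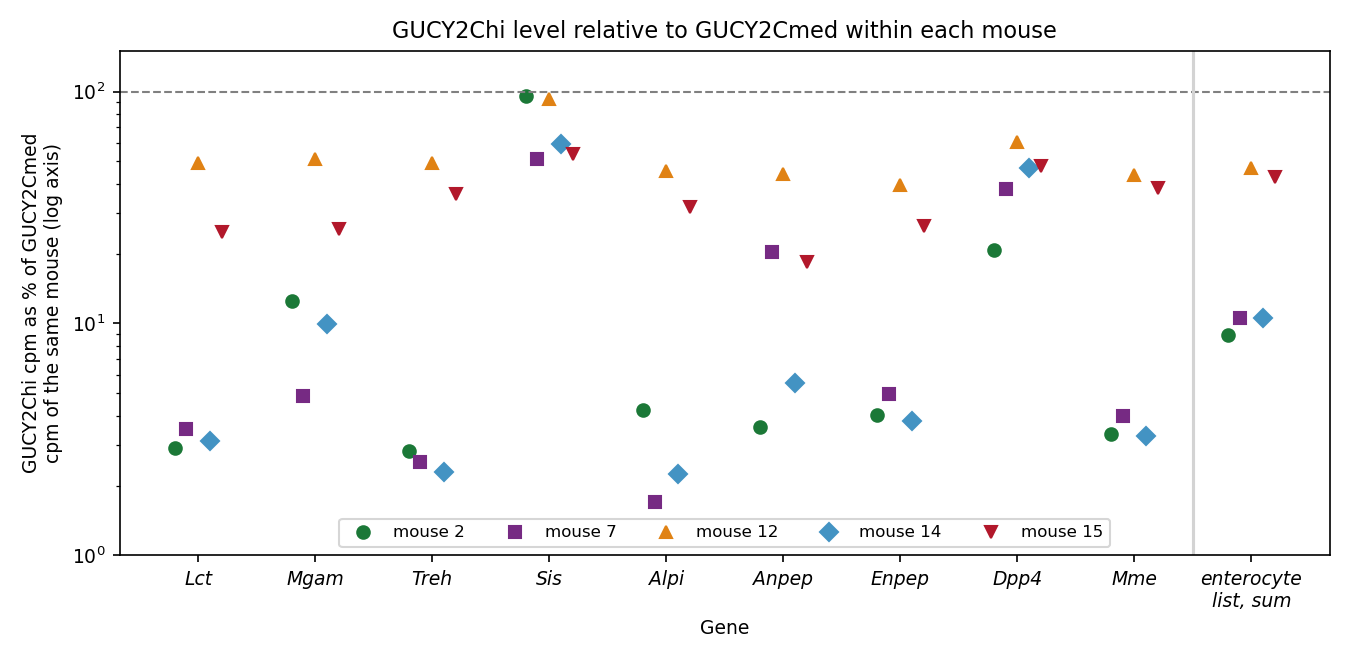
GUCY2Chi cpm as a percentage of the GUCY2Cmed cpm of the same mouse (log axis) for each hydrolase and for the sum of 20 enterocyte markers; the dashed line marks 100%. Points for mice 12 and 15 lie at 18.3% to 51.0% for the 7 genes other than Sis and Dpp4, and Sis lies at 51.1% to 95.9% in all 5 mice.

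Leaving out the GUCY2Chi libraries of mice 12 and 15, a choice made after these values were seen, brought the number of the 9 past the threshold from 4 to 8, and leaving out both libraries of those mice also gave 8. The share of all genes called lower was 14.4% and 10.7% in these analyses, against 8.79% with all libraries. Without the 2 GUCY2Chi libraries, the log2 fold changes of Lct, Treh, Alpi and Mme were -5.15, -5.30, -5.00 and -4.84. Dpp4 then had -1.54 and Sis -0.64 (edgeR adjusted p = 0.152 for Sis). A single library also moved the count of 4. It was 1 without the GUCY2Cmed library of mouse 15, and 6 without the GUCY2Chi library of mouse 15. It was 2 without the GUCY2Chi library of mouse 2, 7 or 14 or the GUCY2Cmed library of mouse 2, 12 or 14. Mgam passed in all 10 of these analyses and Dpp4 in 9, while Anpep passed in 3 and Enpep in 2.

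The make-up of hydrolase RNA was described by the share of each gene in the summed cpm of the 9, with no test. The 9 genes together had 886 to 3515 cpm in GUCY2Chi libraries (median 1432) and 6526 to 9314 cpm in GUCY2Cmed libraries (median 8272). Sis made up 53.1%, 51.5%, 28.3%, 65.5% and 17.3% of this sum in GUCY2Chi libraries of mice 2, 7, 12, 14 and 15, and 6.24% to 19.0% in GUCY2Cmed libraries. Its share was highest in the 3 GUCY2Chi libraries with the least enterocyte RNA, and the 2 groups overlapped through mouse 15. Alpi held 26.1% to 47.9% of the summed cpm in GUCY2Cmed libraries and 3.39% to 28.2% in GUCY2Chi libraries. Dpp4 had a share of 8.87% to 21.8% in GUCY2Chi and of 6.55% to 9.48% in GUCY2Cmed. The groups overlapped for the shares of both Alpi and Dpp4.

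Ratios between the 9 genes within a library, which do not depend on scaling between libraries, were compared for all 36 pairs. The Sis to Mgam ratio was 14.6 to 50.5 in GUCY2Chi and 3.51 to 8.94 in GUCY2Cmed libraries, with no overlap. Sis to Enpep (1.55 to 22.7 against 0.444 to 1.44) and Sis to Anpep (2.24 to 18.1 against 0.426 to 2.20) were also separate. So were Dpp4 to Alpi (0.389 to 5.88 against 0.137 to 0.292) and Dpp4 to Enpep (0.804 to 6.89 against 0.523 to 0.675). Each of these 5 gave the smallest p the exact two-sided permutation test allows, 0.00794, and 0.0571 after Benjamini-Hochberg adjustment over the 36 pairs, so none passed 0.05. All 21 ratios among the other 7 genes overlapped between the groups.

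**Figure D3:**
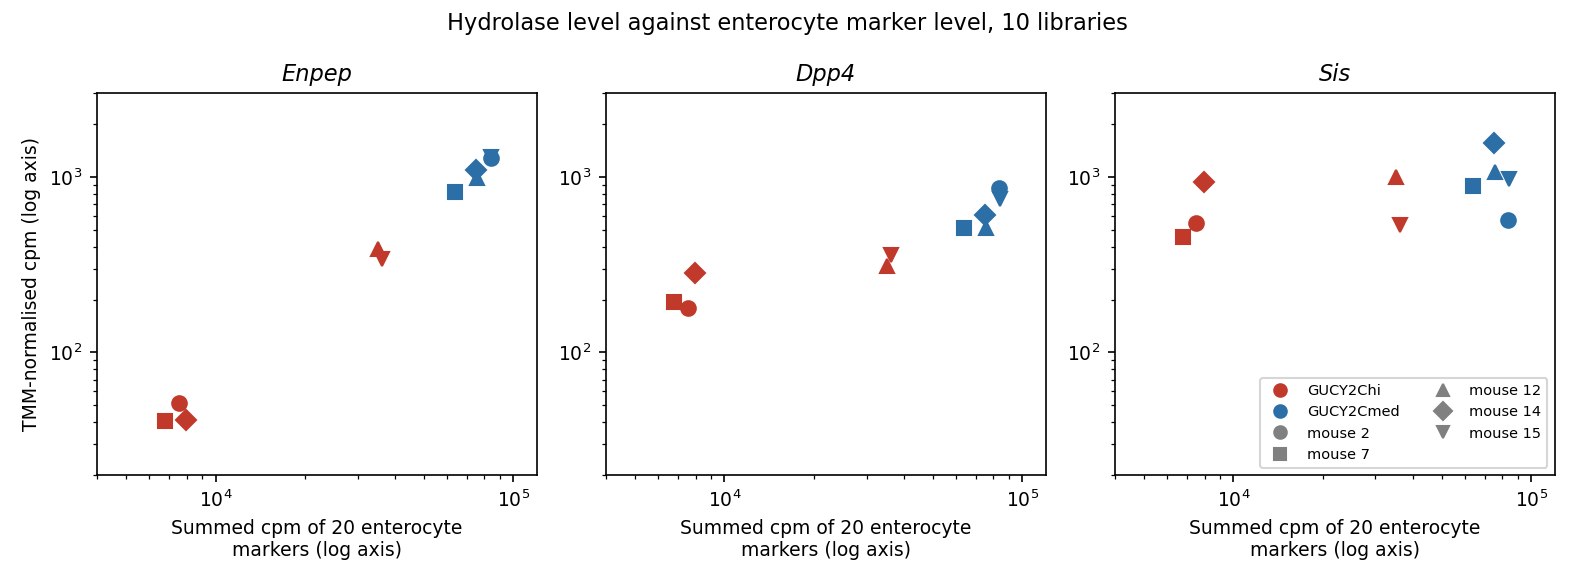
TMM-normalised cpm of Enpep, Dpp4 and Sis (log axes) against the summed cpm of 20 enterocyte markers in the 10 libraries, coloured by group and shaped by mouse. Enpep climbs from 40.6 to 1303 cpm with the markers, Dpp4 spans 180.1 to 869 cpm, and Sis lies at 457 to 995 cpm in GUCY2Chi and 572 to 1572 cpm in GUCY2Cmed.

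Levels of different genes were compared per length, by the deposited FPKM (fragments scaled by gene length and library size). In GUCY2Chi cells the order of mean FPKM was Sis (216 ± 57.0, SD, n = 5), Dpp4 (214 ± 62.9), Alpi (180.2 ± 196), Anpep, Enpep, Treh, Mme, Lct and Mgam (9.96 ± 6.49). In GUCY2Cmed cells it was Alpi (1069 ± 354, SD, n = 5), Anpep (532 ± 221), Enpep, Dpp4, Treh, Sis (267 ± 90.6), Mme, Lct and Mgam (48.4 ± 17.7). Sis and Dpp4 led in GUCY2Chi and had ranks 6 and 4 in GUCY2Cmed. The ranges of neighbours in these orders overlapped in both groups, except for Lct and Mgam in GUCY2Cmed. The lengths implied by the FPKM are 0.215 to 1 times the gene lengths in the same table. With the latter, Alpi had rank 1 by the mean in both groups and Sis rank 2 in GUCY2Chi and 5 in GUCY2Cmed. In GUCY2Chi, Alpi was above Sis in only 2 of 5 libraries on this scale. Its median there was 59.7 cpm per kb, below the 73.5 of Sis.

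The DNA just before the start of transcription is shown for Sis, whose difference was the smallest, for its paralog Mgam, for Lct, and for Dpp4. RefSeq promoters on GRCm38.p6 were found for all 9 genes by symbol. Each run below is the 250 bases before the start, written from 5′ to 3′ on the strand of the gene. Capitals mark matches on either strand to letters that intestinal regulators are known to bind: TTTAT for the CDX family, AGATAA for the zinc finger factors Gata4 to Gata6, and GTTAAT for the HNF1 family. TGATAA, for the same zinc finger factors, and CAAAGT, for HNF4, were searched too but have no match in these 4 windows.
Sis promoter, chr3:72967864-72968113, minus strand: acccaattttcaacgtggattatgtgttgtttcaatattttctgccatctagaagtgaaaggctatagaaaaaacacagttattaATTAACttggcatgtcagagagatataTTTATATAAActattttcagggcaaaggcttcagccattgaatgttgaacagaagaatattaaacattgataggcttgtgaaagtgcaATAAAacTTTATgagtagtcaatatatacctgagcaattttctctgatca
Mgam promoter, chr6:40628581-40628830, plus strand: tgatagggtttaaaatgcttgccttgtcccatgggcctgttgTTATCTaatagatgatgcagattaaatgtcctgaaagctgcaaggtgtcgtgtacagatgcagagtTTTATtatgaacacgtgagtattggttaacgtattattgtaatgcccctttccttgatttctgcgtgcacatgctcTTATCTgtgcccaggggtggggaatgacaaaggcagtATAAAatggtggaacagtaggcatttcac
Lct promoter, chr1:128328319-128328568, minus strand: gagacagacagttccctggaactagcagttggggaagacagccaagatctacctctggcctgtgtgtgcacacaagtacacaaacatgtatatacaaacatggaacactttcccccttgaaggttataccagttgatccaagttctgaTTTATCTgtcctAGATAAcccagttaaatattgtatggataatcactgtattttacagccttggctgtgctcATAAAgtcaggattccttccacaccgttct
Dpp4 promoter, chr2:62412232-62412481, minus strand: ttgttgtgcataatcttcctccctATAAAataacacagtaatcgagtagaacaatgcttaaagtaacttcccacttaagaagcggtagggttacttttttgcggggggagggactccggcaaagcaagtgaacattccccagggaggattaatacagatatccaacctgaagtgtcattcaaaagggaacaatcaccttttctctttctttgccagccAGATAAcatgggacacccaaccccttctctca

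The Sis window held 4 matches to TTTAT, of which a pair is adjoining in opposite orientation, and 1 to GTTAAT. Mgam and Lct held 2 matches each to TTTAT and to AGATAA, and in Lct a match to one overlaps a match to the other. Dpp4 held 1 of each. TTTAT was present in 6 of the 9 genes, among them Alpi and Enpep, and in 37.3% of 32851 promoters of the same length. GTTAAT was in 1 of 9 genes (Sis) and 6.43% of promoters, AGATAA in 3 of 9 and 9.99%, CAAAGT in 3 of 9 (Alpi, Mme and Treh) and 12.6%, and TGATAA in 0 of 9 and 7.94%. The units differ, since a gene counts if any of its promoters has a match and the percentages count each promoter. Mme had 3 promoters, of which only promoter 2 held CAAAGT. At least 4 TTTAT matches, as in Sis, occurred in 2.27% of promoters, a cut chosen after the Sis window was read. Anpep held none of these letters in its window. That window (chromosome 7, 79848211 to 79848460) lies inside the gene span given above, as do the Mme windows. For these genes the bases before the outer end of the span were not searched. A match is a run of letters and not a measured binding site.

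The factors named for these motifs were measured in the same libraries. Of 12 intestinal transcription factor genes, the test called 5 lower in GUCY2Chi and 0 higher, beside 8.79% and 13.9% of all genes. Hnf4g, a nuclear receptor of the enterocyte, had 24.2 to 142 cpm (median 47.6) in GUCY2Chi and 258 to 425 cpm (median 312) in GUCY2Cmed libraries, and fell by 2.16 on the log2 scale (SE 0.44, edgeR adjusted p = 0.00325). Klf5, a factor of crypt and villus epithelium, had 261 to 336 cpm against 454 to 736 cpm and fell by 1.07 (SE 0.18, edgeR adjusted p = 0.00117). Both were separate between groups.

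The GATA factors Gata4, Gata5 and Gata6 fell by 0.85, 0.88 and 0.62 on the log2 scale, with 46.4 to 55.8, 31.7 to 47.5 and 38.5 to 52.0 cpm in GUCY2Chi. Their GUCY2Cmed levels were 60.7 to 127, 57.7 to 114 and 61.9 to 90.7 cpm, all above the GUCY2Chi levels. Cdx1, which with Klf5 had the highest mean cpm of the list, had a median of 235 cpm in GUCY2Chi and 266 cpm in GUCY2Cmed (log2 fold change -0.16, SE 0.18, edgeR adjusted p = 0.515). With the mouse as replicate block in edgeR, 1 of the 12 was lower (Hnf4g, adjusted p = 0.00729), and in limma-voom 2 were. The GATA calls were lost in 7, 9 and 10 of the 10 analyses that left out a library for Gata4, Gata5 and Gata6, and that of Hnf4g without the GUCY2Chi library of mouse 2 or the GUCY2Cmed library of mouse 15.

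**Figure D4:**
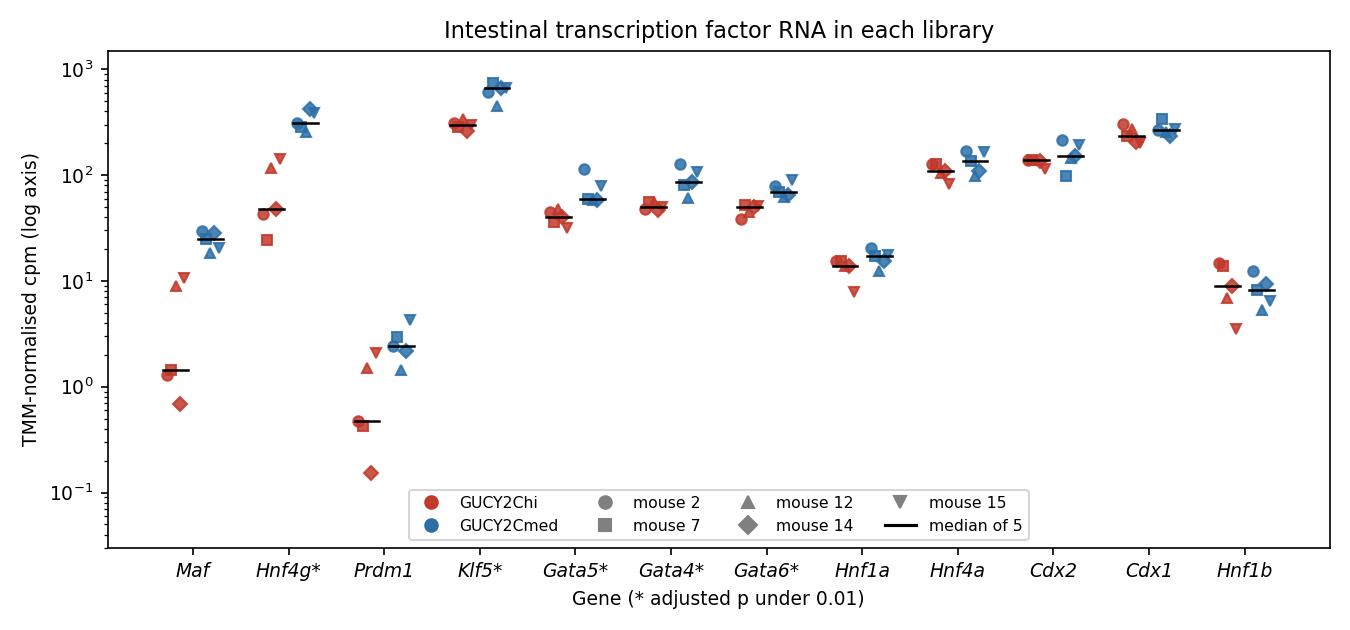
TMM-normalised cpm (log axis) of 12 intestinal transcription factor genes in the 5 GUCY2Chi (red) and 5 GUCY2Cmed (blue) libraries, with the mouse as marker shape and the median of 5 as a line. Genes with an asterisk passed the threshold; Hnf4g sits at 24.2 to 142 cpm in GUCY2Chi and 258 to 425 cpm in GUCY2Cmed, while the Cdx1 groups overlap.

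The other enzymes of the brush border were read from a list of 18 genes, of which 17 were tested. Of these, 3 were called lower and 1 higher, beside 8.79% and 13.9% of all genes. The groups of 8 were separate toward lower values, beside 13.2% of all genes, and the median log2 fold change was -2.23. Mep1a, the alpha subunit of the metalloprotease meprin, had 21.7, 8.38, 51.6, 10.4 and 44.0 cpm in GUCY2Chi and 189, 66.2, 121, 99.0 and 129.8 cpm in GUCY2Cmed libraries of mice 2, 7, 12, 14 and 15. Its groups did not overlap, and it fell by 2.15 on the log2 scale (SE 0.50, edgeR adjusted p = 0.00623).

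Plb1, a brush border phospholipase, had 6.61 to 30.4 cpm in GUCY2Chi against 16.6 to 182 cpm in GUCY2Cmed and fell by 2.44 (SE 0.55, edgeR adjusted p = 0.0054). Xpnpep2, an aminopeptidase specific for proline bonds, had 112 to 184 cpm against 161 to 381 cpm and fell by 0.97 (SE 0.24, edgeR adjusted p = 0.00785). For both the ranges overlapped, and both calls were lost with the mouse as replicate block (adjusted p = 0.0253 and 0.0185 in edgeR, 0.0110 and 0.0116 in limma-voom). Ggt1, a gamma-glutamyltransferase among the genes with the highest mean cpm in the list, had 32.6 to 503 cpm in GUCY2Chi and 1153 to 1437 cpm in GUCY2Cmed. Its groups did not overlap, with a log2 fold change of -2.59 (edgeR adjusted p = 0.0200). It passed with the mouse as replicate block in limma-voom (adjusted p = 0.00419), but not in edgeR.

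Nt5e, the ecto-5′-nucleotidase CD73 that makes adenosine from AMP, went the other way. It had 138, 130.1, 83.7, 102 and 34.6 cpm in GUCY2Chi libraries of mice 2, 7, 12, 14 and 15, and 8.33, 3.45, 3.75, 3.30 and 8.99 cpm in GUCY2Cmed libraries. The lowest GUCY2Chi value was that of mouse 15, and all 5 lay above every GUCY2Cmed value. Nt5e had a log2 fold change of 4.14 (SE 0.45, edgeR adjusted p = 6.67e-05) and passed the threshold in all 22 alternatives. T cell markers, which can accompany CD73, summed to 27.7 to 286 cpm in GUCY2Chi and 34.4 to 198 cpm in GUCY2Cmed libraries, with 0 of 8 past the threshold.

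For the list of 17 as a whole, the count of lower calls was 9 with limma-voom, 12 with DESeq2 and 15 without the GUCY2Chi libraries of mice 12 and 15. It was 6 or 7 without the GUCY2Chi library of mouse 12 or 15 alone, 3 without the GUCY2Cmed library of mouse 7, and 0 without any one of the other 7 libraries.

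Relatives of the 9 enzymes in the same protein families, which act in other tissues or compartments, were read from a list of 22 genes, of which 21 were in the table and 16 were tested. Of these, edgeR called 0 lower and 3 higher, beside 8.79% and 13.9% of all genes, so the share of higher calls was close to that of all genes. At an unadjusted p under 0.05 in edgeR, 2 were lower. DESeq2 called 1 lower and 5 higher, beside 14.2% and 18.8% of all genes. The median log2 fold change of the 16 was 0.28. Alpl, the tissue-nonspecific counterpart of Alpi, had 13.9 to 61.7 cpm in GUCY2Chi (221 to 800 reads) and at most 3 reads in any GUCY2Cmed library. It was at least 122-fold higher, computed against a floor of 3 counts per library, which covers counting error only.

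Alpi and Alpl therefore lay on opposite sides of the comparison. Klb, beta-klotho, a co-receptor for FGF hormones built from the glycosidase domains that lactase also has, had 4.35 to 17.4 cpm in GUCY2Chi and at most 2 reads in any GUCY2Cmed library, and was at least 47.1-fold higher. Fap, fibroblast activation protein and the nearest relative of Dpp4, had 1.64 to 12.4 cpm in GUCY2Chi and at most 0.428 cpm in GUCY2Cmed libraries (log2 fold change 4.87, SE 0.75, edgeR adjusted p = 6.98e-04). Alpl, Klb and Fap passed the threshold in all alternatives that tested them. Markers of mesenchyme and endothelium summed to 3.16 to 17.7 cpm in GUCY2Chi and 0.723 to 7.92 cpm in GUCY2Cmed libraries, with 2 of the 5 tested called higher. These were Col1a2 (0.315 to 1.41 cpm in GUCY2Chi, 0 counts in GUCY2Cmed) and Pecam1 (0.315 to 6.81 cpm against at most 0.225 cpm), at least 3.62-fold and 9.85-fold higher against the floor, in the same direction as Fap. Col3a1 and Cdh5, of the same list of 11, had 0 counts in all GUCY2Chi libraries. Dcn, also of that list, overlapped between groups. It had 0, 3.98, 2.80, 0 and 15.4 cpm in GUCY2Chi libraries of mice 2, 7, 12, 14 and 15, and 0 to 6.83 cpm in GUCY2Cmed libraries. The GUCY2Chi library of mouse 15 had the highest sum of these markers (17.7 cpm), of which Dcn alone gave 15.4 cpm. Its Fap was the lowest of its group (1.64 cpm). The highest Fap (12.4 cpm) was in the GUCY2Chi library of mouse 7, where the markers summed to 14.7 cpm. The part of these cells in the Fap difference was not tested. The relatives with the highest mean cpm, Rnpep (aminopeptidase B) and Ganab (glucosidase II alpha of the endoplasmic reticulum), had log2 fold changes of -0.42 (edgeR adjusted p = 0.0401) and -0.20 (edgeR adjusted p = 0.370).

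**Figure D5:**
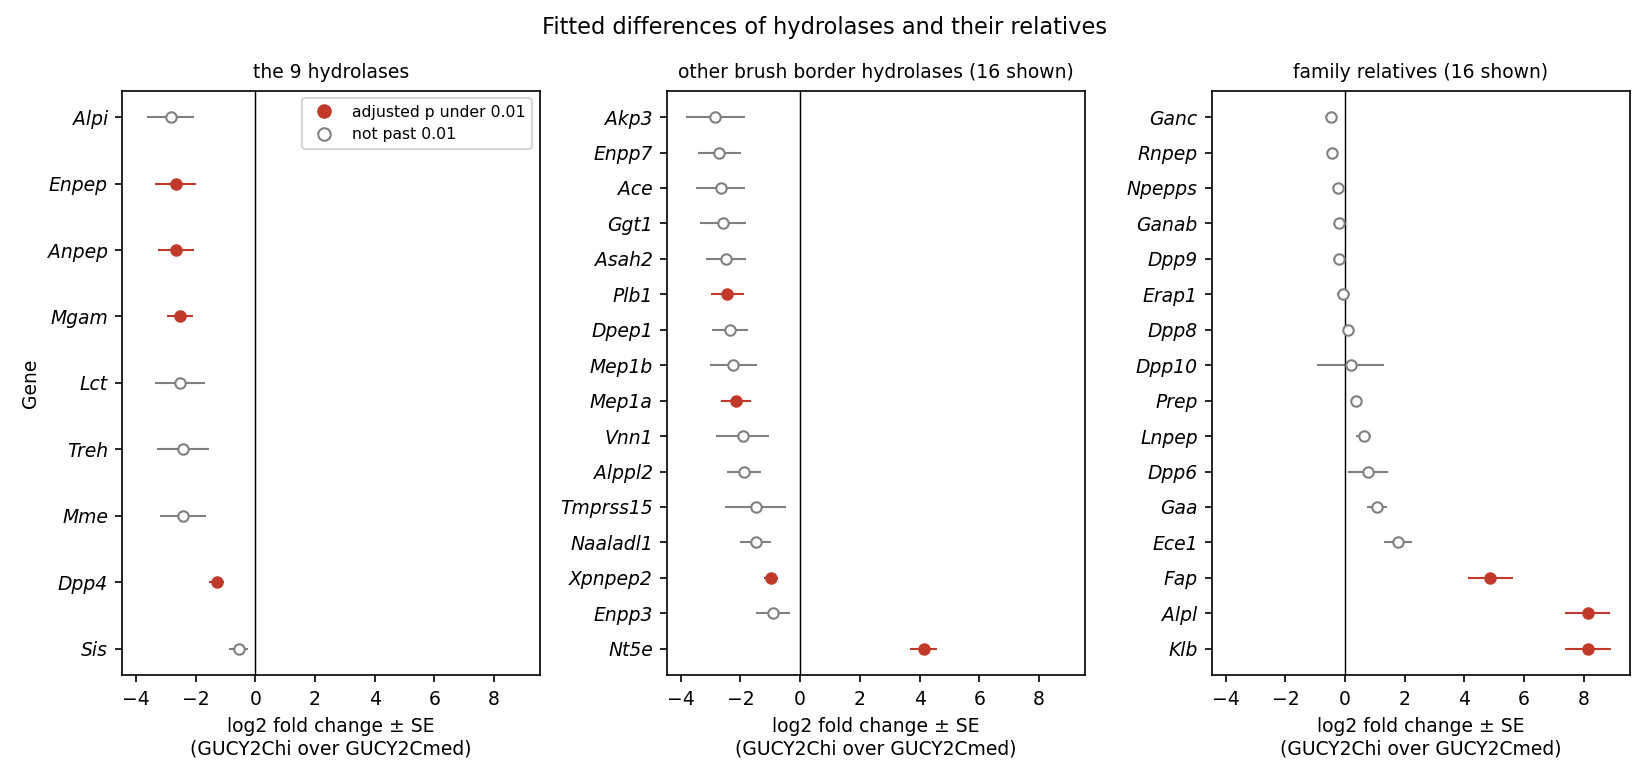
Log2 fold change ± SE (GUCY2Chi over GUCY2Cmed, edgeR) of the 9 hydrolases, 16 of the 17 other brush border hydrolases tested and 16 family relatives, filled where the adjusted p is under 0.01. All but Nt5e of the first 2 panels lie below 0, and the fitted values of Klb and Alpl depend on the prior count because their GUCY2Cmed libraries hold at most 3 reads.

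Digestion of peptides continues inside the cell, and 5 of 10 intracellular peptidases were called lower and 1 higher, beside 8.79% and 13.9% of all genes. The median log2 fold change was -0.73. Cndp2, a cytosolic dipeptidase, had 78.3 to 514 cpm in GUCY2Chi and 1268 to 1744 cpm in GUCY2Cmed and fell by 2.49 on the log2 scale (SE 0.55, edgeR adjusted p = 0.00488). Pepd, prolidase, which splits dipeptides ending in proline, had 230.4 to 885 cpm against 1338 to 1958 cpm and fell by 1.86 (SE 0.43, edgeR adjusted p = 0.00594). Xpnpep1, a cytosolic proline aminopeptidase, fell by 1.84 (edgeR adjusted p = 0.00123), Lap3, leucine aminopeptidase, by 1.25 (edgeR adjusted p = 0.00845) and Nln, neurolysin, by 0.90 (edgeR adjusted p = 0.00135). The groups of all 5 were separate.

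Dpp7, a lysosomal dipeptidyl peptidase, was the gene that rose, with 47.6 to 175 cpm in GUCY2Chi and 17.98 to 29.7 cpm in GUCY2Cmed (log2 fold change 1.88, SE 0.33, edgeR adjusted p = 0.00135). With the mouse as replicate block in edgeR the calls of Lap3 (adjusted p = 0.0152) and Nln (adjusted p = 0.0111) were lost, and both held in limma-voom. Without any one library other than the GUCY2Chi libraries of mice 12 and 15 or the GUCY2Cmed library of mouse 7, the count of lower calls was 2, with Xpnpep1 and Nln called in all 10 of these analyses.

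Of 15 lysosomal glycosidases, the sugar-cutting enzymes of the endolysosome, edgeR called 2 higher and 0 lower, beside 13.9% and 8.79% of all genes, so the share of higher calls was close to that of all genes. At an unadjusted p under 0.05 in edgeR, 2 were lower. DESeq2 called 3 higher and 2 lower, beside 18.8% and 14.2% of all genes. The median log2 fold change was 0.24. Aga, aspartylglucosaminidase, had 48.6 to 123 cpm in GUCY2Chi and 15.4 to 33.0 cpm in GUCY2Cmed (log2 fold change 1.79, SE 0.28, edgeR adjusted p = 7.9e-04). Gla, alpha-galactosidase A, had a log2 fold change of 1.03 (SE 0.25, edgeR adjusted p = 0.00782), overlapped between groups, and lost its call with the mouse as replicate block (adjusted p = 0.0197 in edgeR and 0.0123 in limma-voom). Fuca1, the gene of the list with the highest mean cpm, had a log2 fold change of -0.57 (edgeR adjusted p = 0.0210). The count of higher calls was 1 without the GUCY2Chi library of mouse 2, 12 or 14 or any single GUCY2Cmed library, and 4 without the GUCY2Chi library of mouse 15. Without the GUCY2Chi library of mouse 12, 1 gene was also called lower.

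How the 9 genes varied together within the groups was described by the correlation of each with the mean of the other 8, on log2(cpm + 0.5) values centred within each group, over the 10 libraries. Pearson's r was 0.992 for Enpep, 0.991 for Treh, 0.982 for Mme, 0.981 for Lct, 0.900 for Alpi, 0.853 for Anpep and 0.803 for Mgam. It was 0.682 for Dpp4 and 0.165 for Sis. The points share the split between the GUCY2Chi libraries of mice 12 and 15 and the other three, so r is given as a description. Among 9968 other genes with at least 5 cpm on average, the 5 most like the mean of the 9 were Mttp (r = 0.994), which loads lipid onto chylomicrons and is among the enterocyte markers, Slc4a4 (0.992), a bicarbonate transporter, Sult2b1 (0.991), a sulfotransferase, Cndp2 (0.991) and Acy1 (0.991), which deacetylates amino acids. Their log2 fold changes were -2.49, -2.27, -2.18, -2.49 and -2.44 in that order.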

How the data were processed

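RNA from GUCY2Chi and GUCY2Cmed cells was measured in 10 libraries, 5 per group. The authors deposited unnormalised gene counts that their sequencing provider made after alignment with STAR. The counting tool is not given in the sources used here. FPKM values, as deposited, were used only to order genes by level. The labels name mm9, but 99.9% of 37624 symbols lie where GRCm38 places them, so positions are on GRCm38. The authors' comparison tables hold fold changes and p-values and were not used. Rows are genes, with no unnamed rows.

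Tools were edgeR 4.0.16, DESeq2 1.42.0 and limma 3.58.1, run under R 4.3.3, and Python 3.11.15. Genes over 0.5 cpm in at least 3 libraries were kept, scaled by TMM and compared by edgeR's quasi-likelihood test without a block, with a threshold of 0.01 after Benjamini-Hochberg adjustment. The scripts were tested on simulated data. Exact permutation tests were two-sided on log2(cpm + 0.5). Named genes are the 9 hydrolases, of each other list the genes past the threshold (at most 6 per direction) and the 2 most abundant, and the 5 most correlated genes. The 9 genes and the lists were chosen with earlier results of these data known. Both groups came from the same 5 mice, and libraries with the same number were read as a pair, which the labels do not state outright. Deviations of the libraries of 1 mouse from their group means correlated at -0.07, -0.17, 0.27, -0.10 and 0.05 for mice 2, 7, 12, 14 and 15. Alternatives were other tests and scalings, other filters, a block on the mouse, each library left out and a threshold of 0.05. Within a group, libraries come from separate mice, each of which gave 1 library to each group, and precision is limited by the 5 mice per group and not by depth. Results for some genes of the lists are not reported here.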

Additional observations from a re-analysis of the deposited data

How the results depend on the processing

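No direction of the 9 hydrolases reversed in any of the 22 alternatives. Mgam passed the threshold in 22 of them, Dpp4 in 20, Anpep in 15, Enpep in 10, Alpi and Mme in 7, Lct and Treh in 6 and Sis in 0. The number of the 9 that were lower, 4 in the main analysis, was 8 at a threshold of 0.05, with limma-voom, with DESeq2, with voomWithQualityWeights, without both libraries of mice 12 and 15, and without only the GUCY2Chi libraries of those mice (this last chosen after the data were seen). With the mouse as replicate block it was 3 in edgeR and 8 in limma-voom. The count of other brush border hydrolases that were lower, 3 in the main analysis, was 13 at 0.05, 9 with limma-voom, 12 with DESeq2, 10 with the replicate block in limma-voom, 14 with voomWithQualityWeights, 1 without TMM, 5 without a filter, 11 without both libraries of mice 12 and 15, and 15 without the GUCY2Chi libraries of those mice. Family relatives called, 3 in the main analysis, were 6 at 0.05 and with DESeq2, 5 without TMM or without those GUCY2Chi libraries, and 1 with at least 10 counts required in every library. Lysosomal glycosidases called, 2 in the main analysis, were 6 at 0.05, with voomWithQualityWeights and without TMM, 5 with DESeq2, and 1 with limma-voom, with either test under the replicate block, and without mice 12 and 15. Transcription factors called, 5 in the main analysis, were 1 with the replicate block in edgeR, 2 with it in limma-voom, 2 without TMM, without a filter and with at least 10 counts in every library, and 3 without the 50 most abundant genes. Over all genes, 3567 were called in the main analysis, 6134 at 0.05, 2073 with the replicate block in edgeR and 5385 with voomWithQualityWeights. Scaling by library size without TMM moved the median log2 fold change of all genes from 0.09 to 0.39 and the lower share of all calls from 38.7% to 16.1%, and 3 of the 9 hydrolases were then lower. Single libraries left out in turn gave 1 to 6 of the 9 hydrolases, 0 to 7 other brush border hydrolases, 3 to 4 relatives, 3 to 6 intracellular peptidases, 1 to 4 glycosidases, 1 to 4 transcription factors and 2221 to 4143 of all genes. Per length by the table's gene length, 7 of the 9 genes changed rank in GUCY2Chi and 6 in GUCY2Cmed. The cause of these shifts was not tested. The replicate block changed the calls given beside their genes. In edgeR it also lost Klf5 (adjusted p = 0.0100) and gained Naaladl1, a brush border peptidase (adjusted p = 0.00818), and it changed no other call among the genes named.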

Other observations

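Values of 2 further transcription factor genes of the intestinal list, chosen after they were seen, are given without explanation. Maf, a factor of the villus enterocyte, had 1.28, 1.45, 9.01, 0.694 and 10.7 cpm in GUCY2Chi cells of mice 2, 7, 12, 14 and 15, and 18.4 to 29.6 cpm in GUCY2Cmed cells. Prdm1, a repressor that acts in the change from suckling to adult epithelium, had 0.471, 0.422, 1.51, 0.154 and 2.08 cpm in GUCY2Chi cells. It had 1.44 to 4.28 cpm in GUCY2Cmed cells, so the groups overlapped. The GUCY2Chi values of Prdm1 rest on few reads (7, 7, 20, 2 and 33). In both genes the GUCY2Chi libraries of mice 12 and 15 lay above the other three, as for Lct and Treh. Neither passed the threshold.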
